A study of Homo sapiens with 16 samples.

Results

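The data described here are the mRNA levels of 8 transcription factors, *MYB*, *MYBL1*, *MYBL2*, *MYC*, *MYCL*, *MAX*, *MNT* and *MXI1*, out of 33937 genes in a table of RNA-seq counts. The members were chosen by name, as genes of the MYB and MYC families and of the MAX network. No measured value entered the rule, but earlier results of these data were known when they were chosen. All 8 passed the filter on low counts in every comparison. The RNA came from HCT116, an established human colorectal carcinoma cell line, stably carrying either a scrambled control hairpin (SCR) or a short hairpin RNA against *NAA40* under doxycycline (dox) control, in 4 groups of 4 libraries. The control line gave SCR (−dox) with its counterpart SCR (+dox), and the NAA40-KD line gave NAA40-KD (−dox) with its counterpart NAA40-KD (+dox), where the (+dox) label stands for 1 μg/ml of the drug over 96 h of culture. *NAA40* encodes the acetyltransferase that modifies the N-termini of histones H2A and H4. Each genotype was 1 stable line, so differences between lines cannot be told apart from the effect of the hairpin, and the 4 samples of a group were stated to be independent RNA samples.

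MYB, MYBL1 and MYBL2 share a DNA-binding domain of imperfect repeats. MYB maintains progenitor cells of the blood and of the colonic crypt, MYBL1 acts mainly in the germ line, and MYBL2 joins the MuvB core complex in dividing cells and switches on genes of the G2/M phase. MYC and MYCL are basic helix-loop-helix leucine zipper proteins that bind DNA as dimers with MAX and drive ribosome production and growth, while MNT and MXI1 compete for MAX and repress the same E-box sites. In colorectal cancer, activation of Wnt signalling keeps MYC transcription high.

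The targeted gene went against the labels. *NAA40* stood at 11.8 ± 1.93 CPM (counts scaled to library size with TMM factors; mean ± SD, n = 4) in the libraries labelled NAA40-KD (−dox), at 29.4 ± 3.62 in SCR (−dox), at 27.3 ± 1.44 in SCR (+dox) and at 30.3 ± 1.58 in NAA40-KD (+dox), so all groups are called by their labels and each direction below is tied to a label. Replicate 4 of NAA40-KD (−dox) also stood apart, with a median Pearson correlation to its own group of 0.924, where the other 15 libraries had 0.985 to 0.993, and with 5.03% of counts from mitochondrially encoded genes, where the others had 6.42 to 14.3%. Its *NAA40* level, 13.8 CPM, was within the low range of its group. The main results that rest on this group are therefore also given without that library. Total counts ran from 11065606 to 13855486 per library. Of 9 epithelial markers, 7 were well expressed, among them *EPCAM* at 257 to 396 CPM, whereas *VIL1* and *LGALS4* were below 1 CPM in every library. Their summed level was 5452 to 11384 CPM in NAA40-KD (−dox), where the 11384 came from replicate 4 and the other 3 libraries reached at most 6419, and 4143 to 5869 over the other groups. Its part in the results was not tested. Of 8 markers of blood, stromal and endothelial cells, 6 were below 1 CPM in every library, *VWF* reached 2.79 CPM and *COL1A1* was listed at 56.6 to 195 CPM, with its highest value in NAA40-KD (−dox) replicate 4.

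Sequences upstream of 3 members with large differences between groups are shown here, to place the genes and the short motifs that these families and their regulators bind. They come from RefSeq on build GRCh38.p14, and the letters in capitals are E-boxes, CACGTG, which MYC and MAX dimers bind, or the core GGCGGGA of E2F sites. *MYB* lies on the plus strand of chromosome 6 at chr6:135181315-135219173 (GENCODE release 29, build GRCh38), and the 250 bases before its RefSeq start are chr6:135181058-135181307. *MYBL2* lies on the plus strand of chromosome 20 at chr20:43667019-43716496, and the 155 bases shown, chr20:43666864-43667018, end where its first annotated exon begins. *MNT* lies on the minus strand of chromosome 17 at chr17:2384060-2401118, and the 192 bases shown, chr17:2401119-2401310, precede its first annotated exon.
MYB: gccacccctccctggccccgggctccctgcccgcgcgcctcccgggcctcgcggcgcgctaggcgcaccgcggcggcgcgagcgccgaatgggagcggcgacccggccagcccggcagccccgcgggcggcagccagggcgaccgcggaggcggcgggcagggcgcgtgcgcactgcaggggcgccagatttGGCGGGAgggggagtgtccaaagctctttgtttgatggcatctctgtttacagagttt
MYBL2: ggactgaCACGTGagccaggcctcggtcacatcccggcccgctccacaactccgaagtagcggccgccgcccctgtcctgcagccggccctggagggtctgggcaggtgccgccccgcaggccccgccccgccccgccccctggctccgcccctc
MNT: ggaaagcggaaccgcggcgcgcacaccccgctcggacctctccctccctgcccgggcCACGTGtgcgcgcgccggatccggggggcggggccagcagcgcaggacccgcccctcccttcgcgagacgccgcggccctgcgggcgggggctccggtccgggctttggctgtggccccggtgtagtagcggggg

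Over the full window of 250 bases before the start, searched on both strands, CACGTG occurred once each for *MYBL2* and *MNT*, at 243 and 193 bases before the start, and in 6.34% of all 35116 promoters. GGCGGGA occurred before *MYB* at 58 bases and before *MYBL2* at 39 bases, the latter within the annotated exon and not shown, also before *MAX* and *MXI1*, and in 13.5% of all promoters. This core was added to the search after the sequences had been read, since the longer E2F forms matched no member searched. The search left out *MYC* and *MYBL1*, both on chromosome 8. The longer forms, TTTGGCGC, TTTCGCGC and TTTCCCGC, matched none of the 6 members searched and 2.32% of all promoters. The CHR element TTTGAA, found in 13.3% of all promoters, and the MYB-binding form CAACGG, with its variants TAACGG for the first base, CAACTG for the fifth base or TAACTG for both, found in 21.1%, matched none of these members either. The 3 windows shown are rich in G and C, at 75.6% for *MYB*, 76.8% for *MYBL2* and 78% for *MNT* over 250 bases. A match is a description of letters only.

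Compared per length, as TPM over the annotated exons, the members spanned a wide range. In SCR (−dox), *MYC* had the highest level at 349 ± 44.6 TPM, followed by *MYBL2* at 134 ± 27.1, *MXI1* at 41.1 ± 4.09, *MAX* at 20.6 ± 1.67, *MNT* at 14.9 ± 1.23, *MYCL* at 9.03 ± 2.65, *MYBL1* at 5.68 ± 1.29 and *MYB* at 2.84 ± 0.768 (SD, n = 4). Only *MYCL* and *MYBL1* were neighbours in this order whose means lay within their SDs of each other. SCR (+dox) had the same order with no such neighbours. In NAA40-KD (+dox), *MYB* at 3.15 ± 0.249 TPM and *MYBL1* at 3.08 ± 0.61 TPM were indistinguishable at the bottom of the order. In NAA40-KD (−dox), *MNT* at 27.2 ± 8.12 TPM stood above *MAX* at 16.3 ± 2.26 TPM, and *MYB* was at 0.658 ± 0.178 TPM. There, *MYBL2* and *MXI1* lay within their SDs of each other, as did *MXI1* and *MNT*, but not *MNT* and *MAX*. Without replicate 4 the order was the same, *MNT* was at 23.1 ± 0.63 TPM (n = 3), and of all neighbours only *MYBL2* and *MXI1* lay within their SDs of each other. Both *MYC* and *MYBL1* lie on chromosome 8, at chr8:127735434-127741434 and chr8:66562175-66614247, *MYCL* lies at chr1:39895426-39902256, *MAX* at chr14:65006174-65102695 and *MXI1* at chr10:110207605-110287365.

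**Figure D1:**
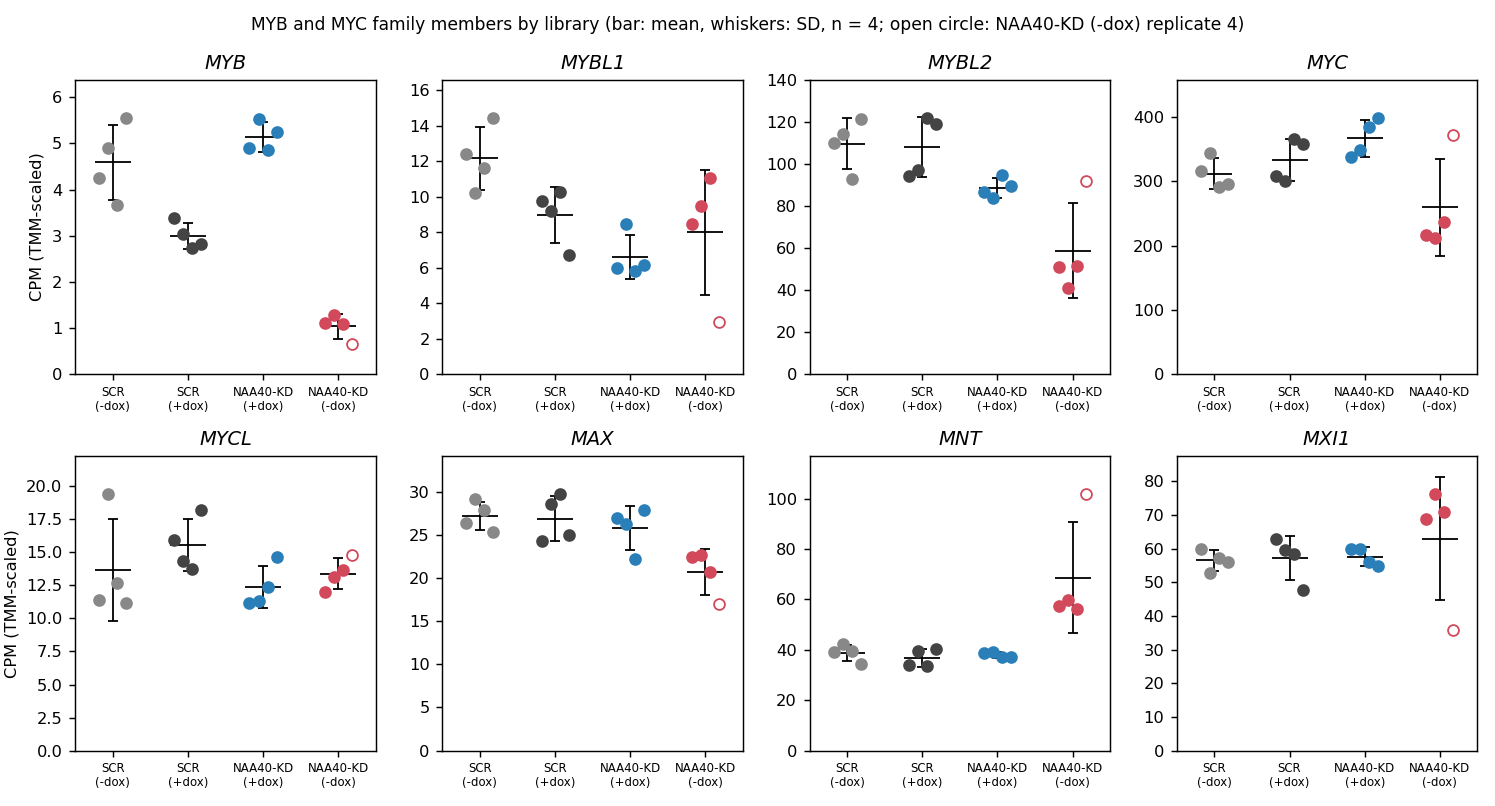
Level of each member in CPM (TMM-scaled, linear axis from 0) in each of the 16 libraries by group, with bars for means and whiskers for SDs (n = 4) and an open circle for NAA40-KD (−dox) replicate 4. MYB is lowest in all 4 NAA40-KD (−dox) libraries, 0.657 to 1.29 CPM. MYC, MYBL1, MYBL2, MNT and MXI1 have their open circle far from the other 3 libraries, and for MYB and MAX it is the lowest of its group.

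*MYB* differed most among the members. Its levels were 4.25, 4.89, 3.66 and 5.55 CPM in SCR (−dox), replicates 1 to 4, and 1.12, 1.29, 1.09 and 0.657 CPM in NAA40-KD (−dox), from 48 to 73 counts per library in the first group and 8 to 17 in the second. All 4 NAA40-KD (−dox) libraries were below every SCR (−dox) library, and the mean was 22.7% of that in SCR (−dox). The log2 fold change was −2.12 (SE 0.256, edgeR quasi-likelihood test, adjusted p = 0.00342), where 892 of 13903 genes tested, 6.42%, passed the same threshold of adjusted p under 0.05, and *MYB* was the only 1 of the 8 members to pass. Without replicate 4 the log2 fold change was −1.97 (SE 0.251, edgeR adjusted p = 2.87e-05). At 8 to 17 counts, counting error is a large part of the spread in this group.

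In the lines labelled (+dox), *MYB* went the other way. It was measured at 3.38, 3.04, 2.74 and 2.83 CPM in SCR (+dox) and at 4.90, 5.54, 4.86 and 5.25 CPM in NAA40-KD (+dox). The groups did not overlap, and *MYB* rose by a log2 fold change of 0.78 (SE 0.165, edgeR adjusted p = 0.00237), to 172% of SCR (+dox). In this comparison 3402 of 13869 genes, 24.5%, passed, and of the members *MYB* and *MYBL2* did. *NAA40* itself did not differ by the test there, with a log2 fold change of 0.15 (SE 0.0956, edgeR adjusted p = 0.281). Within the NAA40-KD line, *MYB* was 4.95-fold higher in the libraries labelled (+dox) than in those labelled (−dox), a log2 fold change of 2.29 (SE 0.212, edgeR adjusted p = 0.0015), and without replicate 4 the log2 fold change was 2.13 (SE 0.217, edgeR adjusted p = 1.62e-08). Here 1414 of 13844 genes, 10.2%, passed, including 2 members, *MYB* and *MNT*.

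The dox label alone was tested in the SCR line, where 0 of 8 members and 0 of 13882 genes, 0.00%, passed with edgeR. DESeq2 and limma-voom also called 0 members. Of all 13882 genes tested, 271 had an unadjusted p under 0.05 with edgeR, *MYB* and *MYBL1* among them. *MYB* was nevertheless lower in all 4 SCR (+dox) libraries than in any SCR (−dox) library, 3.00 ± 0.283 against 4.59 ± 0.812 CPM. Its log2 fold change was −0.62 (SE 0.198), with the 18th lowest p-value of 13882 genes (edgeR adjusted p = 1). The exact two-sided permutation test of the 4 values against 4 gave p = 0.02857, without adjustment over genes. Any groups of 4 against 4 that do not overlap give this p, the smallest that 70 arrangements allow. It therefore adds nothing to the separation already seen. In the plan this test was kept for members that fail the filter on low counts, which *MYB* passed. The 4 comparisons share groups of libraries, so the values of *MYB* in them are not independent of each other.

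*MYBL2*, the cell-cycle member of the MYB family, was measured at 110, 115, 92.8 and 121 CPM in SCR (−dox), and at 50.9, 41.1, 51.7 and 92.1 CPM in NAA40-KD (−dox). Replicates 1 to 3 of NAA40-KD (−dox) were far below SCR (−dox), and replicate 4 was just under the lowest SCR (−dox) library. With all libraries *MYBL2* did not pass, at a log2 fold change of −0.88 (SE 0.252, edgeR adjusted p = 0.0681), whereas it passed with DESeq2 (adjusted p = 0.00953) and limma-voom (adjusted p = 0.044). Without replicate 4 it fell by 1.20 on the log2 scale (SE 0.11, edgeR adjusted p = 1.36e-06), in a fit where 5021 of 13751 genes, 36.5%, passed and 6 of 8 members did. Within the NAA40-KD line, *MYBL2* was 88.9 ± 4.71 CPM in the libraries labelled (+dox), a log2 difference of 0.59 from those labelled (−dox) (SE 0.239, edgeR adjusted p = 0.149). Without replicate 4 that difference was 0.89 (SE 0.0734, edgeR adjusted p = 6.67e-10), in a fit where 7183 of 13700 genes, 52.4%, passed. Compared with SCR (+dox), at 108 ± 14.3 CPM, *MYBL2* was lower in NAA40-KD (+dox) by 0.29 on the log2 scale (SE 0.0974, edgeR adjusted p = 0.0382), although the highest NAA40-KD (+dox) library, 94.9 CPM, was above the lowest SCR (+dox) library, 94.6 CPM. Over 16 alternatives its adjusted p ran from 0.0171 to 0.433, and the call was lost in 8 of them, including those without any 1 of the NAA40-KD (+dox) libraries (0.063 to 0.118) and without SCR (+dox) replicate 3 (0.0719) or 4 (0.0783).

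*MYBL1*, the germ line member, was weakly expressed at 10.2 to 14.4 CPM in SCR (−dox), 6.74 to 10.3 CPM in SCR (+dox), 5.82 to 8.49 CPM in NAA40-KD (+dox) and 2.96 to 11.1 CPM in NAA40-KD (−dox). It passed in none of the 5 tests with all libraries. Its log2 fold change was −0.60 (SE 0.33, edgeR adjusted p = 0.308) between the lines labelled (−dox), or −0.34 without replicate 4 (SE 0.148, edgeR adjusted p = 0.0873), and −0.44 (SE 0.163, edgeR adjusted p = 0.0579) between the lines labelled (+dox). The latter passed in 5 of 16 alternatives, among them without NAA40-KD (+dox) replicate 2 (adjusted p = 0.0253) or SCR (+dox) replicate 4 (adjusted p = 0.0171). In the SCR line, *MYBL1* was at −0.44 with the (+dox) label (SE 0.161, edgeR adjusted p = 1). The 2.96 CPM of NAA40-KD (−dox) replicate 4 came from 36 counts, against 114 to 152 in the other 3 libraries of the group. Without it, *MYBL1* was lower in the NAA40-KD line with the (+dox) label than with the (−dox) label by 0.55 on the log2 scale (SE 0.147, edgeR adjusted p = 0.00312).

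*MYC* had 316, 344, 291 and 296 CPM in SCR (−dox), and 309, 300.4, 365 and 358 CPM in SCR (+dox). It had 337, 349, 384 and 398 CPM in NAA40-KD (+dox), and 217, 211, 237 and 371 CPM in NAA40-KD (−dox). Replicates 1 to 3 of NAA40-KD (−dox) were below all 12 libraries of the other groups, and replicate 4 was above all but 2 of them. With all libraries, the difference between the lines labelled (−dox) was −0.25 on the log2 scale (SE 0.202, edgeR adjusted p = 0.487) and did not pass. Without replicate 4 *MYC* fell to 222 ± 13.7 CPM (n = 3), 71.1% of SCR (−dox), with a log2 fold change of −0.50 (SE 0.0872, edgeR adjusted p = 0.000447). This 1 library thus decided the call, and it was above the rest of its group for *MYBL2* as well. *MYC* was at 0.14 between the lines labelled (+dox) (SE 0.0917, edgeR adjusted p = 0.286), and in the SCR line at 0.09 with the (+dox) label (SE 0.107, edgeR adjusted p = 1), neither past the threshold. Within the NAA40-KD line, *MYC* was higher with the (+dox) label by 0.50 (SE 0.194, edgeR adjusted p = 0.137), which without replicate 4 became 0.72 (SE 0.0589, edgeR adjusted p = 8.55e-10).

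*MYCL*, the *MYC* relative first found amplified in lung cancer, passed none of the 5 tests with all libraries and no replicate block, nor without NAA40-KD (−dox) replicate 4. Its group means were 13.7 ± 3.88 CPM in SCR (−dox), 15.6 ± 1.98 in SCR (+dox), 12.4 ± 1.6 in NAA40-KD (+dox) and 13.4 ± 1.16 in NAA40-KD (−dox). Of its log2 fold changes, that between the lines labelled (+dox), −0.33 (SE 0.128, edgeR adjusted p = 0.0679), was nearest to the threshold, and it passed without NAA40-KD (+dox) replicate 4 (adjusted p = 0.045) or SCR (+dox) replicate 3 (adjusted p = 0.0346), and with the replicate number as a block (adjusted p = 0.0369). *MYCN*, a further *MYC* paralog, is not analysed here.

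*MAX*, the shared dimer partner, ranged from 25.4 to 29.2 CPM in SCR (−dox) and from 17.0 to 22.7 CPM in NAA40-KD (−dox). The groups did not overlap, and the lowest library was again replicate 4. Here, as for *MYB* and *MNT*, the share of all genes whose groups do not overlap is not given. With all libraries the log2 fold change was −0.39 (SE 0.148, edgeR adjusted p = 0.152), and without replicate 4 it was −0.31 (SE 0.102, edgeR adjusted p = 0.0254). The size of the difference was thus similar with and without that library, and the spread was smaller without it. *MAX* was at 25.9 ± 2.54 CPM in NAA40-KD (+dox) and 26.9 ± 2.63 CPM in SCR (+dox) and did not pass (log2 fold change −0.06, SE 0.108, edgeR adjusted p = 0.728). Within the NAA40-KD line, *MAX* was at 0.32 with the (+dox) label (SE 0.144, edgeR adjusted p = 0.189). Without replicate 4 it was called higher at 0.23 (SE 0.0909, edgeR adjusted p = 0.0358), where 52.4% of all genes were called.

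*MNT*, a repressor that dimerises with MAX in most cell types, was the member that stood highest in NAA40-KD (−dox) relative to the other groups. It was measured at 57.5, 59.6, 56.0 and 102 CPM there, against 39.0, 42.2, 39.5 and 34.5 CPM in SCR (−dox), 33.5 to 40.4 CPM in SCR (+dox) and 37.0 to 39.3 CPM in NAA40-KD (+dox). All 4 NAA40-KD (−dox) libraries were above the other 12, and replicate 4 was far above its group. With all libraries *MNT* just missed the threshold against SCR (−dox), at a log2 fold change of 0.84 (SE 0.22, edgeR adjusted p = 0.0533). It passed with DESeq2 (adjusted p = 0.00514) but not with limma-voom, and stayed short of the threshold in 11 of 16 alternatives. Without replicate 4 the change was smaller and passed, at 0.57 (SE 0.0921, edgeR adjusted p = 0.00023), or 149% of SCR (−dox). Within the NAA40-KD line *MNT* fell with the (+dox) label by 0.86 on the log2 scale (SE 0.208, edgeR adjusted p = 0.0339), and by 0.60 without replicate 4 (SE 0.0651, edgeR adjusted p = 4.01e-08). That call was lost without any 1 of the NAA40-KD (+dox) libraries (adjusted p = 0.0974 to 0.115) and without NAA40-KD (−dox) replicate 1 (0.0507) or 2 (0.056). *MNT* was at 0.04 between the lines labelled (+dox) (SE 0.0969, edgeR adjusted p = 0.776). The gene shares 1065 exonic bases with an antisense gene that is not listed in the table, and whether the counting used strand is not given in the sources used here.

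*MXI1*, a MAX-binding repressor of the MXD group, was at 60.0, 52.8, 57.3 and 55.9 CPM in SCR (−dox) and at 69.0, 76.1, 71 and 36.0 CPM in NAA40-KD (−dox). Replicates 1 to 3 were above every SCR (−dox) library and replicate 4 was below all of them. The log2 fold change was 0.16 with all libraries (SE 0.218, edgeR adjusted p = 0.699) and 0.35 without replicate 4 (SE 0.085, edgeR adjusted p = 0.00497). *MXI1* was at 57.7 ± 2.73 CPM in NAA40-KD (+dox) and 57.2 ± 6.54 CPM in SCR (+dox), with a log2 fold change of 0.01 (SE 0.0968, edgeR adjusted p = 0.944). Within the NAA40-KD line, *MXI1* was at −0.13 with the (+dox) label (SE 0.217, edgeR adjusted p = 0.731). Without replicate 4 it was called lower at −0.33 (SE 0.0624, edgeR adjusted p = 0.000122), where 52.4% of all genes were called. *MYB*, *MYCL*, *MAX* and *MXI1* also share exonic bases with antisense genes, from 103 bases for *MYB* to 226 for *MYCL*, whereas *MYC*, *MYBL1* and *MYBL2* share none with another annotated gene.

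**Figure D2:**
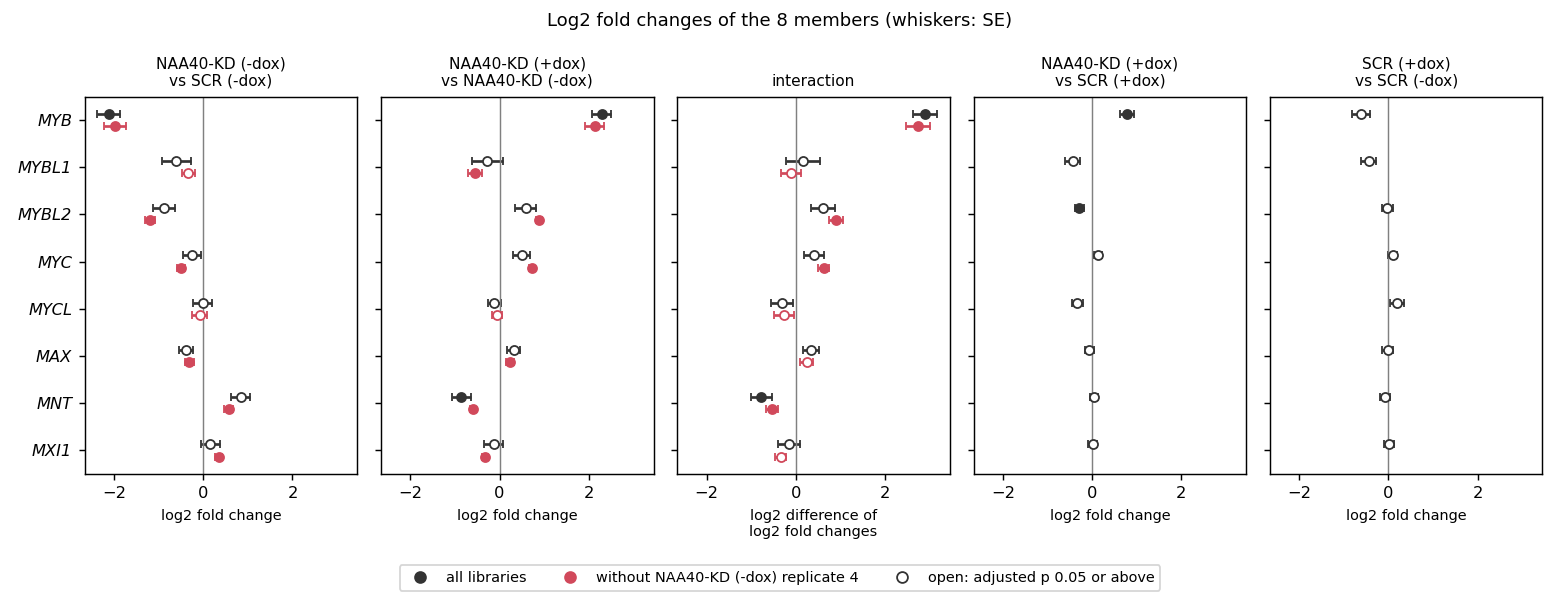
Log2 fold change of each member in the 4 comparisons and the interaction (difference of log2 fold changes), with whiskers for SEs, filled points for adjusted p under 0.05, and red points for fits without NAA40-KD (−dox) replicate 4. MYB is far from 0 in both fits of NAA40-KD (−dox) against SCR (−dox), at −2.12 and −1.97, while MYC and MYBL2 are filled there only without that library.

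Whether the line difference depended on the dox label was tested directly, as an interaction over all 16 libraries. *MYB* had an interaction of 2.90 on the log2 scale (SE 0.271, edgeR adjusted p = 2.22e-05), the 2nd lowest p of 14392 genes. *MNT* had an interaction of −0.78 (SE 0.233, edgeR adjusted p = 0.0453), which passed no longer without any 1 of the 12 libraries outside NAA40-KD (−dox) (adjusted p = 0.0525 to 0.0951). They were the 2 members past the threshold, where 1327 of 14392 genes, 9.22%, passed. *MYBL2* at 0.61 (SE 0.27, edgeR adjusted p = 0.17), *MYC* at 0.41 (SE 0.218, edgeR adjusted p = 0.259) and *MAX* at 0.33 (SE 0.176, edgeR adjusted p = 0.249) did not pass. Without NAA40-KD (−dox) replicate 4, 4 of 8 members passed, where 3467 of 14302 genes, 24.2%, did. These were *MYB* at 2.74, *MYBL2* at 0.90 (edgeR adjusted p = 0.000145), *MYC* at 0.63 (edgeR adjusted p = 0.00103) and *MNT* at −0.53 (edgeR adjusted p = 0.00398). *MYBL1*, *MYCL*, *MAX* and *MXI1* remained short of the threshold in both fits.

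Genes that the MYB proteins are known to work with or act on were followed next, as lists written from general knowledge. With all libraries, 6.42% of all genes tested were called between the lines labelled (−dox), 10.2% within the NAA40-KD line and 9.22% in the interaction. The list of 18 G2/M genes activated by MYBL2-MuvB and FOXM1 was lower between the lines labelled (−dox) in 6 of 18 and higher in 0, with a median log2 fold change of −0.72 against 0.04 over all genes tested. In RNA from whole cultures, fewer cells in a phase of the cycle and less RNA per cell cannot be told apart. The 4 largest called changes were in *BIRC5*, an inhibitor of apoptosis that acts at the centromere, at −1.17 (SE 0.216, edgeR adjusted p = 0.0165), *AURKA*, a spindle kinase, at −0.93 (SE 0.176, edgeR adjusted p = 0.0172), *KIF23*, a kinesin of cytokinesis, at −0.82 (SE 0.178, edgeR adjusted p = 0.0276) and *CCNB1*, cyclin B1, at −0.80 (SE 0.166, edgeR adjusted p = 0.0227). Without NAA40-KD (−dox) replicate 4, 16 of 18 were lower and 0 higher, where 36.5% of all genes passed, with a median of −0.60 against −0.01 over all genes tested. In NAA40-KD (+dox) against SCR (+dox), 6 of 18 were lower and 0 higher, where 24.5% of all genes were called in either direction. The median was −0.20 against −0.00425 over all genes tested. The called changes were led by *BIRC5* at −0.94 (SE 0.111, edgeR adjusted p = 9.05e-06), the ubiquitin-conjugating enzyme *UBE2C* at −0.41 and *CDC20*, an activator of the anaphase-promoting complex, at −0.38. In this comparison *MYBL2* itself was lower by 0.29.

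The MuvB and DREAM list, which assembles MYBL2 or the RB-like repressors on these promoters, had 2 of 12 genes lower between the lines labelled (−dox). They were *RBL1*, an RB-like pocket protein, at −1.09 (SE 0.272, edgeR adjusted p = 0.0453) and *TFDP1*, the dimer partner of E2F factors, at −0.56 (SE 0.145, edgeR adjusted p = 0.0482). Against SCR (+dox), 3 of 11 were higher and 0 lower in NAA40-KD (+dox), where 24.5% of all genes were called. The higher genes were *E2F5* at 0.38, *LIN52* at 0.35 and *E2F4* at 0.29. The median of the list was −0.27 in the first comparison and 0.21 in the second. Without replicate 4, 4 of 12 were lower and 1 higher between the lines labelled (−dox), so 5 of 12 were called where 36.5% of all genes were.

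Of 10 genes reported as activated by MYB, a list that holds *MYC* as well, 7 passed the filter. *CCNB1* at −0.80 and *CCNE1*, the G1/S cyclin E1, at −0.73 (SE 0.169, edgeR adjusted p = 0.0347) were lower between the lines labelled (−dox), and 0 were higher with all libraries. Without replicate 4, where 36.5% of all genes passed, *MYC* was lower too and *ADA*, adenosine deaminase, was higher at 0.42 (SE 0.111, edgeR adjusted p = 0.00814). *ADA* and the other list genes named below for that fit were chosen after their values were seen. In NAA40-KD (+dox), where *MYB* was higher and 24.5% of all genes were called, 3 of 7 were lower and 0 higher than in SCR (+dox). These were *HSPA5*, the chaperone BiP of the endoplasmic reticulum, at −1.22 (SE 0.0805, edgeR adjusted p = 1.57e-08), *CCNB1* at −0.29 (SE 0.0857, edgeR adjusted p = 0.018) and *PTGS2*, cyclooxygenase 2, at −1.43 (SE 0.284, edgeR adjusted p = 0.00144), which was below the minimum of 5 CPM and is named here after its value was seen. Among 8 cofactors and kinases of MYB, *PIM1*, a kinase that phosphorylates MYB, was higher at 1.10 (SE 0.16, edgeR adjusted p = 0.00616), and *HIPK2*, a kinase that marks MYB for degradation, was lower at −0.63 (SE 0.125, edgeR adjusted p = 0.0206) between the lines labelled (−dox). Without replicate 4 *PIM1* was at 1.01 and *HIPK2* at −0.61, and 1 of 8 was higher and 3 were lower, where 36.5% of all genes were called. With the (+dox) label, *PIM1* at 0.40 and *MYBBP1A*, a nucleolar MYB-binding protein, at 0.29 were higher, and *CEBPB*, a transcription factor that cooperates with MYB, at −1.05 and *SND1*, a coactivator, at −0.40 were lower.

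**Figure D3:**
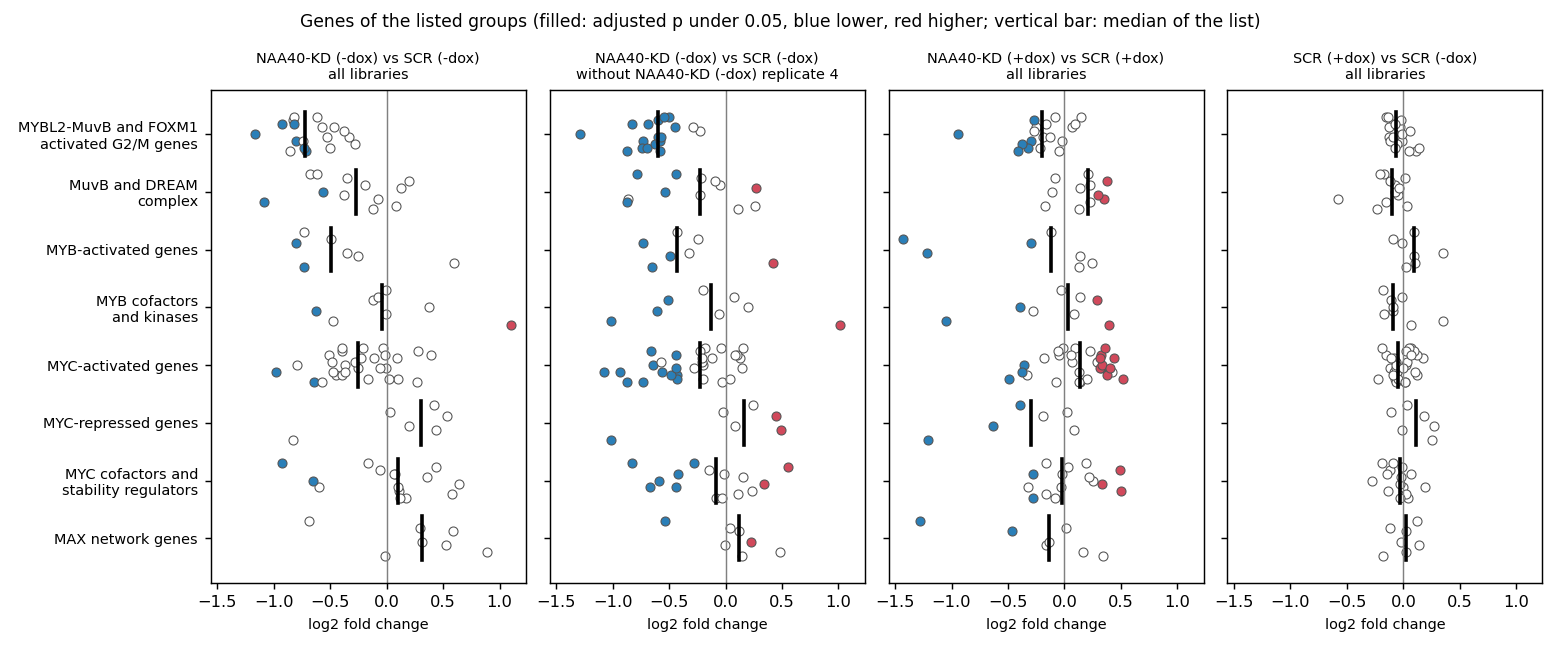
Log2 fold changes of the genes in 8 lists in 4 fits, with filled points at adjusted p under 0.05 (blue lower, red higher) and a vertical bar for the median of each list. The G2/M list lies left of 0 in NAA40-KD (−dox) against SCR (−dox), with a median of −0.72, and no point is filled in SCR (+dox) against SCR (−dox).

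On the side of *MYC*, 29 of 30 genes listed as MYC-activated passed the filter. In NAA40-KD (−dox), 2 were lower and 0 higher than in SCR (−dox). These were *NCL*, the nucleolar protein nucleolin, at −0.98 (SE 0.136, edgeR adjusted p = 0.00539) and *NOP56*, a component of the enzyme complex that methylates ribosomal RNA, at −0.64 (SE 0.138, edgeR adjusted p = 0.0267). The median was −0.25. Without NAA40-KD (−dox) replicate 4, 12 of 29 were lower and 0 higher, where 36.5% of all genes passed in either direction, and the median was −0.23 against −0.01 over all genes tested. With the (+dox) label, 10 of 29 were higher and 3 lower with a median of 0.13, where 24.5% of all genes were called in either direction. The called list genes included *RRS1*, a ribosome assembly factor, at 0.52 (SE 0.113, edgeR adjusted p = 0.00305), *PPAT*, the first enzyme of purine synthesis, at 0.44 and *TFRC*, the transferrin receptor, at −0.49. *MYC* itself had not passed in that comparison. Within the NAA40-KD line, 7 of 29 were higher with the (+dox) label and 0 lower, led by *NCL* at 1.06 (SE 0.105, edgeR adjusted p = 0.0015), and without replicate 4, 22 were higher and 1 lower, where 52.4% of all genes passed.

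Of 6 genes listed as repressed by MYC, 0 passed between the lines labelled (−dox) with edgeR, and without replicate 4, 2 were higher and 1 lower, where 36.5% of all genes passed. Against SCR (+dox), 3 were lower, where 24.5% of all genes were called. The lower genes were *GADD45A*, a stress-induced growth arrest gene, at −1.20 (SE 0.0961, edgeR adjusted p = 9.66e-08), *NDRG1*, a stress and hypoxia gene, at −0.63 and *CDKN1A*, the kinase inhibitor p21, at −0.40. In the interaction, *NDRG1* at −0.82, *CDKN1A* at −0.80 and *CDKN2B*, the kinase inhibitor p15, at −0.72 were lower.

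Of the 7 other genes of the MAX network that were found, 0 passed between the lines labelled (−dox), where *MLXIPL*, a glucose-responsive partner of MLX, had the largest value at 0.89 (SE 0.322, edgeR adjusted p = 0.132). Replicate 4 of NAA40-KD (−dox) had 314 CPM of *MLXIPL* and the other 3 libraries 116 to 156, and without it the value was 0.48 (SE 0.181, edgeR adjusted p = 0.058). In that fit 2 of 7 were called, where 36.5% of all genes were, with *MLX* higher at 0.22 (SE 0.0831, edgeR adjusted p = 0.0471) and *MXD1* lower at −0.53 (SE 0.179, edgeR adjusted p = 0.0299). Between the lines labelled (+dox), *MXD1*, a MAX-binding repressor of differentiating cells, was lower at −1.28 (SE 0.139, edgeR adjusted p = 3.88e-06), as was its relative *MXD4* at −0.46 (SE 0.0942, edgeR adjusted p = 0.00187), while the related member *MXI1* was at 0.01. Of 15 cofactors and stability regulators of MYC, *AURKA*, which shields the MYC proteins from degradation, at −0.93 and *SKP2*, a ubiquitin ligase subunit that binds MYC, at −0.66 (SE 0.168, edgeR adjusted p = 0.0473) were lower between the lines labelled (−dox). Without replicate 4, 8 of 15 were called where 36.5% of all genes were, 6 of them lower, *AURKA* and *SKP2* included, and 2 higher, the acetyltransferase *KAT2A* at 0.34 and the ubiquitin ligase subunit *FBXW7* at 0.56. Between the lines labelled (+dox), 3 were higher and 2 lower, where 24.5% of all genes were called. The higher genes included the deubiquitinase *USP28* at 0.50 and *WDR5*, a chromatin scaffold that binds MYC, at 0.49. In the SCR line with the (+dox) label, 0 genes of these lists passed with edgeR.

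Of 9 genes around the *MYC* and *MYB* loci that were found, 6 passed the filter, and 0 were called between the lines labelled (−dox). *PVT1*, a long noncoding RNA next to *MYC*, stood at 64.7 ± 6.59 CPM in NAA40-KD (−dox) and 47.3 ± 2.07 CPM in SCR (−dox). Without replicate 4, *PVT1* and *HBS1L*, the gene beside *MYB*, were called higher and the noncoding RNA *CASC19* lower, where 36.5% of all genes were called. In this fit *PVT1* and *HBS1L* were on the other side of 0 from *MYC* and *MYB*. In the lines labelled (+dox), *CASC19* was lower at −0.51 (SE 0.106, edgeR adjusted p = 0.00201) and *AHI1*, on the far side of *MYB*, was higher at 0.42 (SE 0.104, edgeR adjusted p = 0.00696).

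The genes whose levels were most like those of a member were found by Pearson's r of log2 CPM over the 16 libraries, among 11426 genes, as a description. The libraries fall into 4 groups, so these values mostly follow the differences between groups. For *MYB* the 5 genes were *SNAP29* (r = 0.972), *TMEM248*, *UGT8*, *PTDSS1* and *NCL* (r = 0.957), and over the 12 libraries outside NAA40-KD (−dox) their r with *MYB* was 0.628 to 0.823. For *MYBL2* they were *NRGN* (r = 0.973), *HIRIP3*, *ASF1B*, *SHMT1* and *TK1* (r = 0.969), of which *ASF1B* is a histone chaperone of S phase and *TK1* is thymidine kinase, and r over the 12 libraries was 0.816 to 0.936. For *MYC* they included *FANCG* (r = 0.965), *HMGA1*, *TOX2* and *CDT1* (r = 0.956), and these 4 had 0.785 to 0.872 over the 12 libraries. *CDT1* licenses replication origins.

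**Figure D4:**
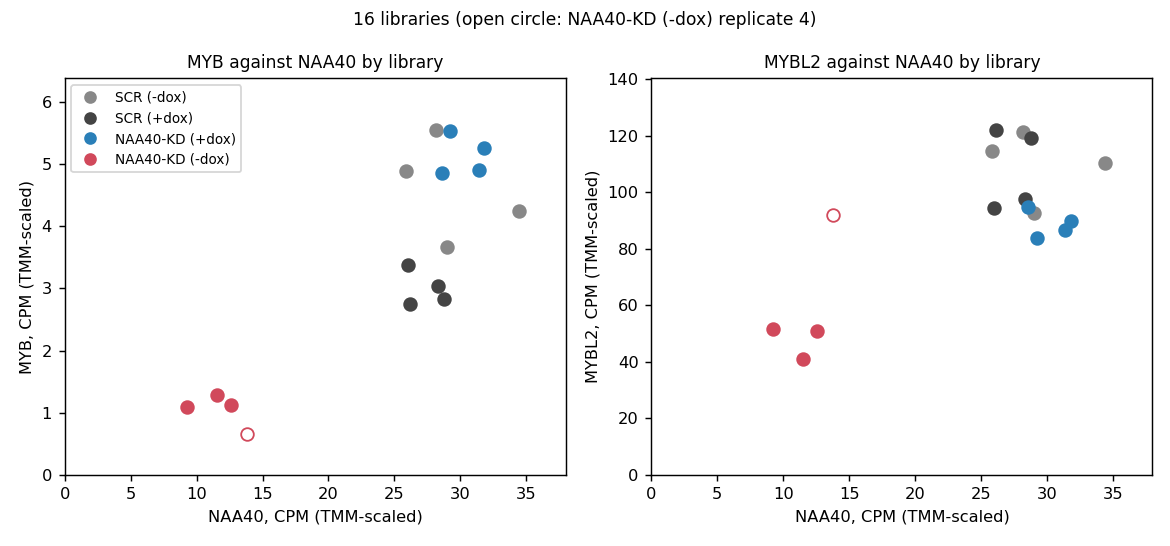
Levels of MYB and of MYBL2 against NAA40 in the 16 libraries, in CPM (TMM-scaled) on linear axes from 0, coloured by group, with an open circle for NAA40-KD (−dox) replicate 4. The 4 NAA40-KD (−dox) libraries have both low NAA40, 9.25 to 13.8 CPM, and low MYB, 0.657 to 1.29 CPM, while MYBL2 in the open circle, 92.1 CPM, is close to the other groups.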

How the data were processed

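RNA-seq counts of 16 HCT116 libraries were used, 4 in each of 4 groups taken from the labels. The authors deposited raw counts, whole numbers of reads per gene, for 33937 genes. The submitters' processing notes name STAR, featureCounts and limma and the builds hg38 and GRCm38, and the methods name mm10, but all 33937 identifiers were human and 0 were mouse. Kits differ between labels (Direct-zol) and methods (RNeasy, stranded NEBNext), and whether reads were counted by strand is not given in the sources used here.

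From the counts, each comparison was fitted on its own 8 libraries, and the interaction on all 16, with edgeR 4.0.16 in R 4.3.3 (TMM, robust two-sided quasi-likelihood F test, Benjamini-Hochberg adjustment over all genes tested). Genes with CPM >1 in at least 4 libraries entered, and adjusted p under 0.05 was called. SE is the size of the log2 fold change over the square root of F. TPM used the union of GENCODE 29 exons. The script was tested on simulated data. Named were all members, at most 4 called genes per list and comparison with at least 5 CPM in a group (largest changes first), and the 5 genes most alike in level, of which 1 is not reported here. Members and lists were chosen with earlier results of these data known. Alternatives were DESeq2 1.42.0, limma-voom in limma 3.58.1, library-size and upper-quartile scaling, no filter, other thresholds, CPM >1 required everywhere, a block for replicate number, 1 fit over all 16 libraries, and each library left out. Counts of list genes without NAA40-KD (−dox) replicate 4 were added after seeing the data. Depth was 11065606 to 13855486 counts per library. The chi-square per degree of freedom between libraries of a group was 1.74 to 140, above sampling noise. Values of 128 to 140 came from pairs with NAA40-KD (−dox) replicate 4. Such an excess cannot tell independent samples from repeat preparations of the same sample. Each library was counted as a replicate because the samples were stated to be independent.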

Additional observations from a re-analysis of the deposited data

Results flagged for a closer look

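In groups of 4 libraries, Dixon's test at the 95% level singled out 1 library in 3 of 32 combinations of member and group, and chance alone does so in about 5% of such groups. *MYC* was at 371 CPM in NAA40-KD (−dox) replicate 4, where the gap to the nearest library of the group was 0.838 of the range. *MNT* was at 102 CPM in the same library, with a gap of 0.921 of the range. *MYBL1* was at 8.49 CPM in NAA40-KD (+dox) replicate 2, with a gap of 0.867 of the range, and the other 3 libraries of that group had 5.82 to 6.18 CPM.

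The difference between the lines depended on the dox label for 2 members by the test of the interaction, where 1327 of 14392 genes, 9.22%, passed. *MYB* had an interaction of 2.9 on the log2 scale (edgeR adjusted p = 2.22e-05), with a line difference of −2.12 with the (−dox) label and of 0.78 with the (+dox) label. *MNT* had an interaction of −0.777 (edgeR adjusted p = 0.0453), with line differences of 0.84 and 0.04. Its call was lost in 15 of 23 alternatives.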

How the results depend on the processing

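Over 40 log2 fold changes of members, 693 alternative values were computed, of which 610 kept their direction and side of the threshold, 30 lost the threshold, 32 gained it and 21 changed sign. The changes in *MYB* between the lines and within the NAA40-KD line and its interaction kept their calls in every alternative fit that could be computed. Where an absolute log2 fold change above 1 was also required, the change in *MYB* between the lines labelled (+dox), at 0.78, was no longer called. With CPM >1 required in every library *MYB* was not tested where NAA40-KD (−dox) entered. Between the lines labelled (−dox), the number of members called, 1, became 3 with DESeq2, library-size normalization, no filter on low counts or adjusted p under 0.1, where 13.8, 6.57, 3.39 and 12.2% of all genes tested were called. It became 2 with limma-voom (7.13% of all genes), 0 with CPM >1 in every library (5.85%), 4 in the fit on all 16 libraries (20.5%), and 1 to 6 with 1 library left out, the 6 without NAA40-KD (−dox) replicate 4 (36.5%, against 1.64 to 3.18% without any other). Between the lines labelled (+dox), 2 became 1 at adjusted p under 0.01, with library-size normalization and in the fit on all 16 libraries (12.7, 25 and 6.71% of all genes), 4 at adjusted p under 0.1 (32.7%), 0 with an absolute log2 fold change above 1 (2.15%), and 1 to 2 with 1 library left out (17 to 25.4%). There, the count was 3 with upper-quartile normalization and with no filter on low counts (24.4 and 10.9%). Within the NAA40-KD line, 2 became 1 at adjusted p under 0.01, with the fold threshold and with CPM >1 in every library (2.39, 3.99 and 10.2%), 4 in the fit on all 16 libraries (22.3%), and 1 to 7 with 1 library left out, the 7 without NAA40-KD (−dox) replicate 4 (52.4%, against 2.77 to 6.66% without any other). In the interaction, 2 became 1 at adjusted p under 0.01, with the fold threshold, limma-voom, no filter on low counts and CPM >1 in every library (3.23, 4.49, 9.35, 2.98 and 10.1%), and 1 to 4 with 1 library left out, the 4 without NAA40-KD (−dox) replicate 4 (24.2%, against 5.71 to 9.45% without any other). In the SCR line the count was 0 in every alternative. The cause of these differences was not tested.

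Replicate numbers were not stated to pair libraries, and the correlation of same-numbered libraries ran from −0.416 to 0.237. With the replicate number as a block, the number of members called was 1 between the lines labelled (−dox), where 0.59% of all genes were called against 6.42% without the block. It was 4 between the lines labelled (+dox) (*MYB*, *MYBL1*, *MYBL2* and *MYCL*), where 29.3% of all genes were called against 24.5%, 1 within the NAA40-KD line (5.61 against 10.2%), 0 in the SCR line (0 of all genes) and 1 in the interaction (8.46 against 9.22%).

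The sign changes were all in values that passed no threshold. *MYCL* between the lines labelled (−dox), −0.02, became 0.0166 with limma-voom and 0.0142 with the replicate block, and ran from −0.0998 to 0.198 with 1 library left out. Between the lines labelled (+dox), *MXI1*, at 0.01, became −0.0030 with upper-quartile scaling, and with 1 library left out *MXI1* ran from −0.0661 to 0.0661, *MNT* from −0.0032 to 0.0921 and *MAX* from −0.098 to 0.0145. In the SCR line, with 1 library left out, *MYBL2* ran from −0.0954 to 0.037, *MAX* from −0.0665 to 0.0203 and *MXI1* from −0.0417 to 0.0898. The interaction of *MYBL1* ran from −0.111 to 0.356, the −0.111 without NAA40-KD (−dox) replicate 4. Depth limits *MYB* most, at 8 to 17 counts per library in NAA40-KD (−dox).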
